A study of Mus musculus with 6 samples.

Results

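The genes described here encode the proteins of the mitochondrial ribosome. They were taken as every gene whose symbol is Mrpl or Mrps followed by a digit and that has a probe set (a group of array probes for one transcript) assigned to that gene alone. Where a gene had several such probe sets, the one with the highest mean over the 6 arrays stood for it. This gave 74 genes of the 12393 named on the array, and each of the 74 was also among the 7644 genes bright enough to be tested, which means a log2 level of 4 or more on 3 arrays or more. By their known place, 49 belong to the large subunit and 24 to the small subunit. Mrps36, counted here by its symbol, is known as a subunit of the alpha-ketoglutarate dehydrogenase complex. Mrpl30 and Mrpl53 have probe sets that carry several symbols and are not members.

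Mitochondria translate their own messages, which encode core subunits of the respiratory chain and ATP synthase, on a ribosome of their own. Its RNA comes from mitochondrial DNA, but its proteins are encoded in the nucleus, made in the cytosol and imported. Many of the proteins have counterparts in the bacterial ribosome and the others are specific to mitochondria. The nuclear genes are known to be served by the transcription factors NRF1 and GABP, an ETS factor, and by YY1 and MYC.

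The cells were 3 mouse lung adenocarcinoma-derived lines, KPR4, KPR5 and KPR8, all from the C57/B6-129SvJae strain background. In the first group, 1 array per line, cells were exposed for 24 h to 250 nM 4-OH tamoxifen in ethanol. The second group, again 1 array per line, had received ethanol. Per the labels, the drug brings p53 expression back in these cells. The labels used here do not state the alleles, how each line was derived or whether it is 1 clone. No line without a restorable p53 was among the samples, so effects of p53 and other effects of the drug cannot be told apart.

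All values are log2 levels or differences of log2 levels, tamoxifen minus ethanol within a line. The arrays were alike in signal, with 57.2% to 57.6% of probe sets at log2 4 or above. The p53 targets Cdkn1a, Mdm2, Ccng1 and Phlda3 were higher with the drug in each line, by 2.68 or more. Of the markers of lung and other epithelium, Krt8, Krt18, Cdh1 and Epcam lay between 8.89 and 13.5. Also well above background was the alveolar water channel gene Aqp5 at 7.23 to 10.11, with Epcam lower (-0.37 ± 0.12) and Cdh1 higher (0.30 ± 0.10) with the drug. The other 6 genes of that list, among them the lung lineage factor gene Nkx2-1 and the surfactant gene Sftpc, did not exceed 3.37. The leukocyte gene Ptprc lay between 1.62 and 2.05 and the endothelial gene Pecam1 between 2.98 and 3.43, near the 1.13 to 2.84 of the Bacillus control probe sets. The fibroblast gene Col1a1 lay between 5.41 and 7.73. Past the filter were 5 of 11 epithelial, 2 of 5 leukocyte, 0 of 4 endothelial and 3 of 5 fibroblast markers, and among the leukocyte ones Cd68, also expressed outside leukocytes, was higher with the drug by 1.02 ± 0.15. The log2 of the summed signal of the 5 leukocyte markers was 5.79 to 6.02 with tamoxifen and 5.53 to 5.75 with ethanol, and for the 4 endothelial markers it was 5.13 to 5.34 with tamoxifen and 5.18 to 5.44 with ethanol. For the 5 fibroblast markers it was 6.92 to 8.22 with tamoxifen and 7.08 to 8.0 with ethanol. Their part in the results was not tested. The arrays measure total RNA of a culture after normalization, so fewer cells and less RNA per cell cannot be told apart.

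The 5 members that changed with treatment, and the 2 with the largest positive differences for contrast, have the promoter sequences printed here. Each window runs from 250 bases before to 50 bases after the start of the gene, 5′ to 3′ on the strand of the gene, as RefSeq gives it on GRCm38.p6. Capitals mark matches to any of 4 motifs on either strand, the NRF1 motif GCGCATGCG, the ETS motif CCGGAAG, the E-box CACGTG bound by MYC and MAX, and the YY1 motif AAGATGGC. Mrpl42 lies on the minus strand at chr10:95501900-95502199, Mrpl18 on the minus strand at chr17:12916042-12916341, Mrpl47 on the minus strand at chr3:32736706-32737005 and Mrpl17 on the minus strand at chr7:105811038-105811337. Mrps18b lies on the minus strand at chr17:35916391-35916690, Mrpl39 on the minus strand at chr16:84735195-84735494 and Mrpl44 on the plus strand at chr1:79775768-79776067.
Mrpl42: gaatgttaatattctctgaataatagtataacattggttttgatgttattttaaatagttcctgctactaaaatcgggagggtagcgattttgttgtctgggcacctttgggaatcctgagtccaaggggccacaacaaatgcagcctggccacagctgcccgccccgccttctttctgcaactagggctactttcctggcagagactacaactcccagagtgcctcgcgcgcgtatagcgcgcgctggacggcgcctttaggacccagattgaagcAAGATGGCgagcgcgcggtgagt
Mrpl18: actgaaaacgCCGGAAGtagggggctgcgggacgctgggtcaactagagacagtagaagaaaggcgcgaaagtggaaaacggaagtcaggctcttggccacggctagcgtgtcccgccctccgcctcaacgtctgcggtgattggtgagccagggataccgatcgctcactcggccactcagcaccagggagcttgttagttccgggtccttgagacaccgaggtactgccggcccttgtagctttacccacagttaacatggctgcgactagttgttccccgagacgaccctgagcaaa
Mrpl47: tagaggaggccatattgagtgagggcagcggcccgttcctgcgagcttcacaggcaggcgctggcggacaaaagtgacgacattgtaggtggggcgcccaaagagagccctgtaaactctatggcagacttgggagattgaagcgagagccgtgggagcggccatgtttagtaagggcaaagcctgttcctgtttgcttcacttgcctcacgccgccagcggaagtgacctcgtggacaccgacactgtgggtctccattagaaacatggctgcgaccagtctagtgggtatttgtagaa
Mrpl17: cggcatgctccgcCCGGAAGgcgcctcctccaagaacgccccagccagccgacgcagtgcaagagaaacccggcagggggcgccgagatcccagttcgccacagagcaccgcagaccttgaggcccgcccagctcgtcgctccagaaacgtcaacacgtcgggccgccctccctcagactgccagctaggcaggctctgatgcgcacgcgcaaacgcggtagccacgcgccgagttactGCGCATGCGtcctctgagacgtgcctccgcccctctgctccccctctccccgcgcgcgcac
Mrps18b: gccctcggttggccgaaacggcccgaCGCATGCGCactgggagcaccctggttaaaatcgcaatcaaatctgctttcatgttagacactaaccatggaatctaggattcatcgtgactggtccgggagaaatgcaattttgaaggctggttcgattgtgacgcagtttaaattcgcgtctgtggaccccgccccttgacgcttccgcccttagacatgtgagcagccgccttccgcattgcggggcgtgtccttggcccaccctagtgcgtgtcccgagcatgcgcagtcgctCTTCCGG
Mrpl39: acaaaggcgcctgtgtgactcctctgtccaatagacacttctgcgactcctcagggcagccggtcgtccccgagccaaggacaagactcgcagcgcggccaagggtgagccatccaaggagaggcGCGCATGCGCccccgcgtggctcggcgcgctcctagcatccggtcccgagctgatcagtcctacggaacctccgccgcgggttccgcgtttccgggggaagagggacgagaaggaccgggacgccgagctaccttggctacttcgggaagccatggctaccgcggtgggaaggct
Mrpl44: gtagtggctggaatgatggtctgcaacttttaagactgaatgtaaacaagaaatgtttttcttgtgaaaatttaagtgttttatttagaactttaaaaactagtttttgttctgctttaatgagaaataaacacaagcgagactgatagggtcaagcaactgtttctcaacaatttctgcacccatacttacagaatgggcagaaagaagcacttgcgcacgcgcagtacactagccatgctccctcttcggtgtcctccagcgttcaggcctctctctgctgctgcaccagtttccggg

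The windows of Mrpl17 and Mrps18b each held 1 NRF1 and 1 ETS match, that of Mrpl18 held 1 ETS match, and that of Mrpl42 held 1 YY1 match just after the start. The window of Mrpl39 held a palindromic NRF1 site that counts as 2 overlapping matches, and those of Mrpl47 and Mrpl44 held no match. RefSeq windows were found for 65 of the 74 members. Among those 65 genes, 36.9% had an ETS match, against 21.9% of the 6261 tested genes with a window and 9.93% of all 27025 genes in the table. An ETS match was more frequent still among cytosolic ribosomal protein genes, at 18 of 36, of which 69.4% had a match to at least 1 of the 4 motifs, against 58.5% of members. A YY1 match was present for 16.9% of members, against 5.86% of tested genes and 3.19% of all genes, and an NRF1 match for 10.8%, against 4.60% and 1.95%. The E-box was present for 7.69% of members, against 12.4% of tested genes and 8.09% of all genes. Members with an ETS match had a median difference of -0.17 (n = 24) and those without of -0.22 (n = 41). With and without a YY1 match the medians were -0.26 (n = 11) and -0.18 (n = 54). With and without an NRF1 match they were -0.12 (n = 7) and -0.21 (n = 58). These matches are letters in a window and do not show binding.

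Treatment moved the mitochondrial ribosomal protein genes little. In the limma fit 5 of the 74 were lower with tamoxifen and 0 higher at an adjusted p under 0.05, and at an unadjusted p under 0.05 the counts were 12 and 0. Over all tested genes, 8.94% were lower and 10.5% higher, 19.5% in all, so the members' 6.76% lower is near the background and is not a result about the group. The 5 genes were Mrpl42, Mrpl18, Mrpl47 and Mrpl17 of the large subunit and Mrps18b of the small subunit. Their differences ran from -0.40 to -0.55, or 1.32-fold to 1.46-fold lower. This count rests on single lines: it was 2 without KPR4 (Mrpl12 and Mrpl42), 0 without KPR5 and 1 without KPR8 (Mrpl18). At an unadjusted p under 0.05 the fit without KPR5 gave 9 members lower.

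**Figure D1:**
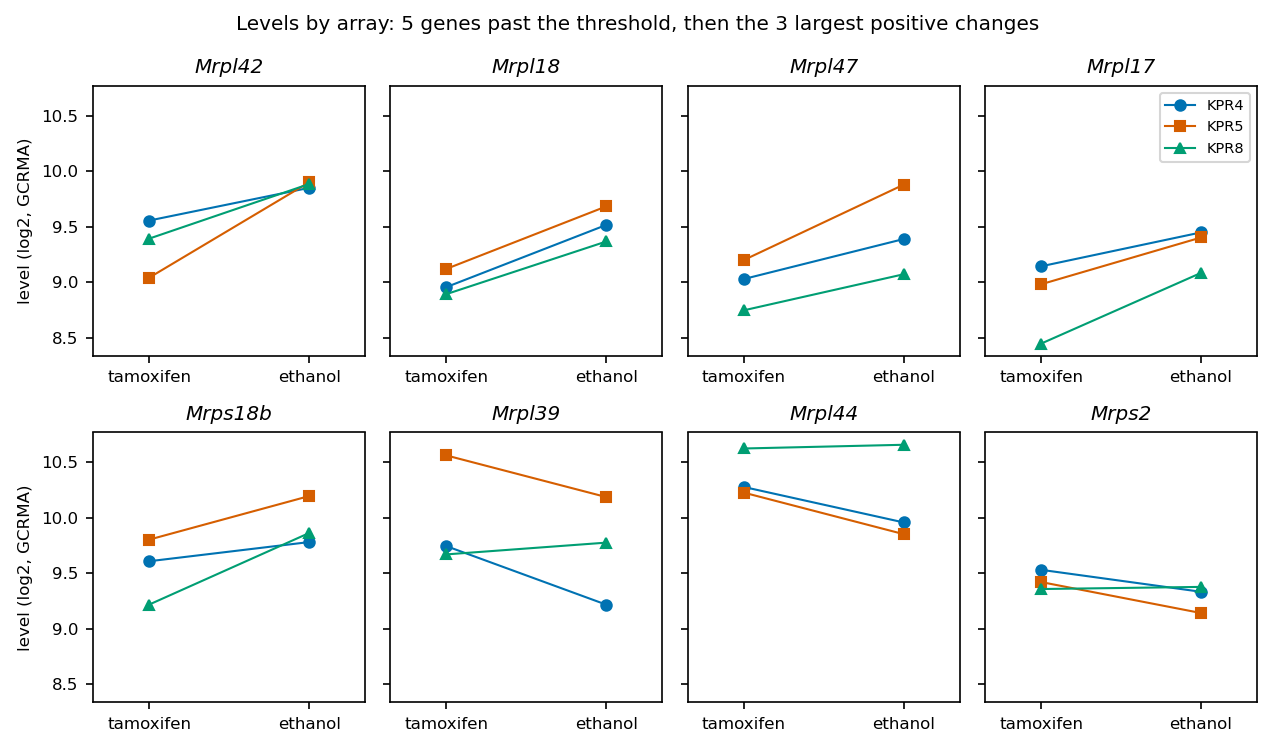
Levels (log2, y axis) on the tamoxifen and ethanol arrays of each line, 1 point per array joined within a line, for the 5 genes that passed the threshold and the 3 with the largest positive differences. In the first 5 panels each line is lower with tamoxifen, whereas Mrpl39, Mrpl44 and Mrps2 are higher in KPR4 and KPR5 and slightly lower in KPR8.

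Mrpl42, a protein specific to the mitochondrial large subunit, read 9.56, 9.04 and 9.39 in tamoxifen-treated KPR4, KPR5 and KPR8, against 9.85, 9.90 and 9.89 in the ethanol-treated lines. The 3 ethanol arrays lay within 0.05 of each other and above every tamoxifen array. The difference was -0.55 ± 0.14 (SE, n = 3 lines, limma adjusted p = 0.0134). Without KPR5, where it was largest, it was -0.39 (limma adjusted p = 0.130), and without KPR8 it was -0.58 (limma adjusted p = 0.0636).

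Mrpl18, the counterpart of bacterial ribosomal protein L18, read 8.96, 9.12 and 8.89 with tamoxifen, against 9.52, 9.68 and 9.37 with ethanol, in the same order of lines. It was the most even of the 5: the groups did not overlap and each line was lower by 0.47 to 0.56. The difference was -0.53 ± 0.13 (SE, n = 3 lines, limma adjusted p = 0.0112). The call ended without KPR4 (limma adjusted p = 0.0807) and without KPR5 (limma adjusted p = 0.0558), with differences of -0.52 in both.

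Mrpl47, the counterpart of bacterial L29, read 9.03, 9.20 and 8.75 with tamoxifen, against 9.39, 9.88 and 9.07 with ethanol. The groups overlapped because KPR5 stood above the other lines under both treatments, and each line was lower with the drug. The difference was -0.46 ± 0.14 (SE, n = 3 lines, limma adjusted p = 0.0332). Mrpl17, the counterpart of bacterial L17, read 9.14, 8.98 and 8.45 with tamoxifen, against 9.45, 9.40 and 9.08 with ethanol. Here KPR8 stood below the other lines, with a difference of -0.46 ± 0.14 (SE, n = 3 lines, limma adjusted p = 0.0338).

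Mrps18b, one of 3 mouse homologues of bacterial S18, read 9.61, 9.80 and 9.22 with tamoxifen, against 9.78, 10.20 and 9.86 with ethanol. The groups overlapped, and the fall was largest in KPR8. The difference was -0.40 ± 0.14 (SE, n = 3 lines, limma adjusted p = 0.0488). Its relatives did not pass, Mrps18a at -0.20 ± 0.15 and Mrps18c at -0.10 ± 0.12. Leaving out any 1 of the lines ended the calls of Mrpl47, Mrpl17 and Mrps18b, with limma adjusted p of 0.0582 to 0.220, 0.0828 to 0.129 and 0.0619 to 0.199.

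**Figure D2:**
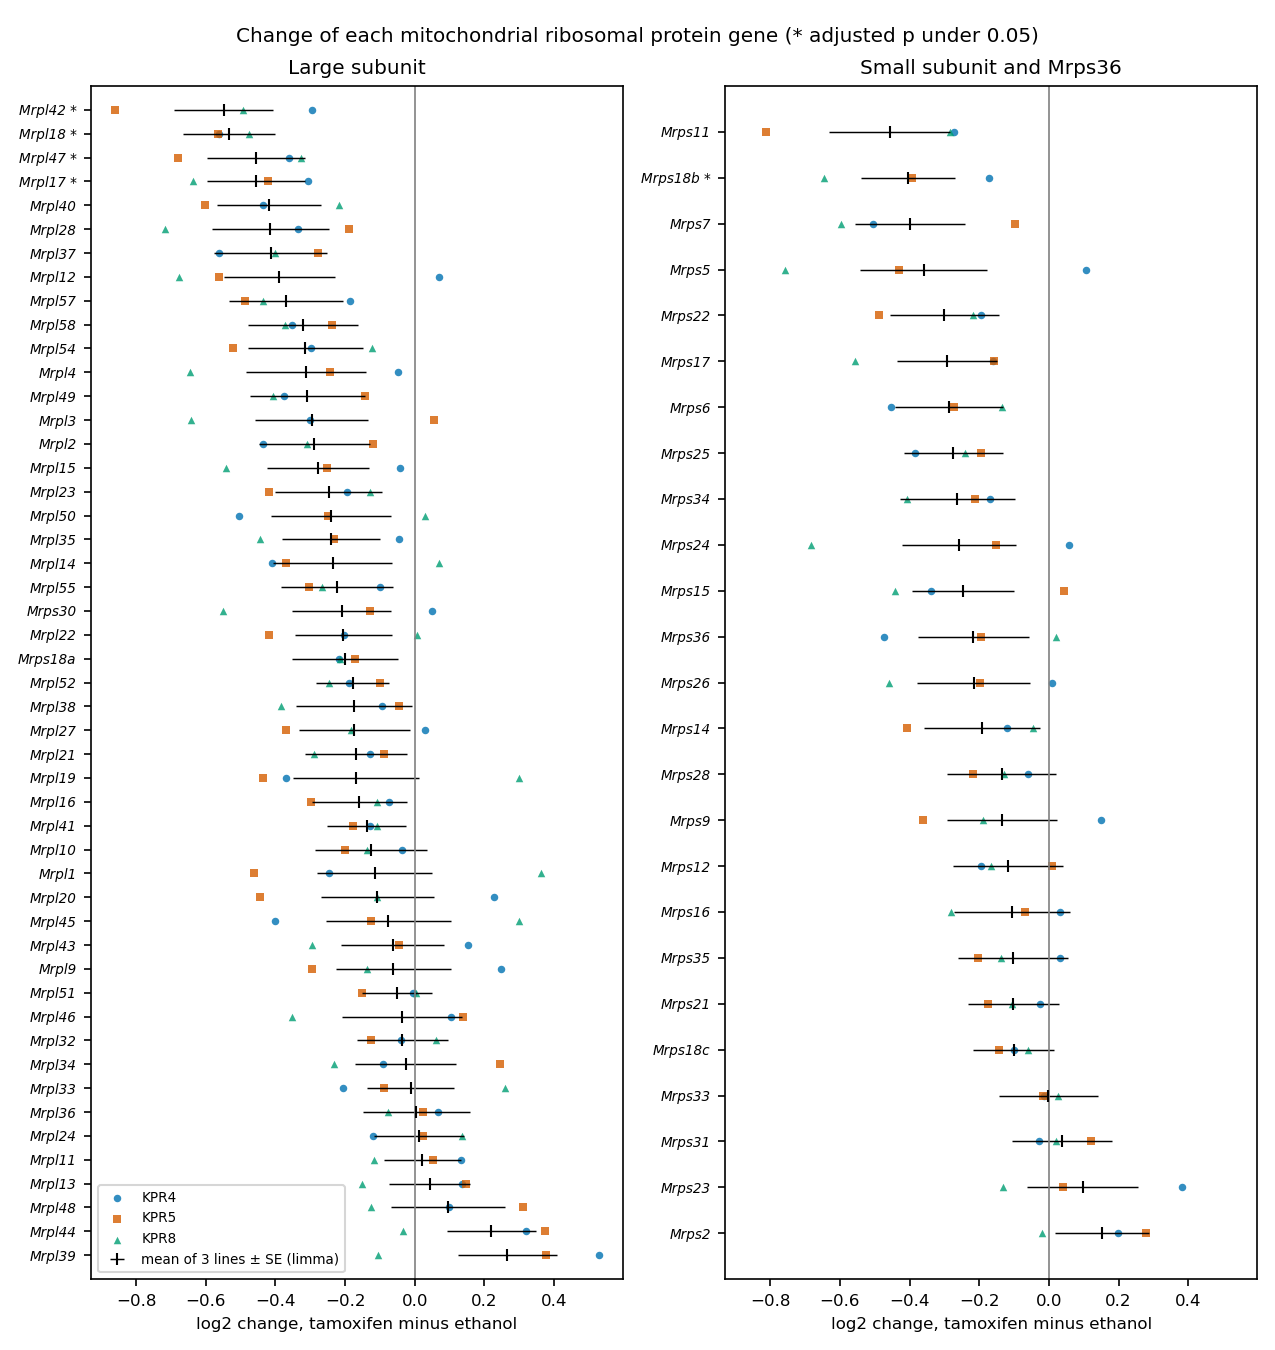
Log2 difference, tamoxifen minus ethanol (x axis), of each member in KPR4, KPR5 and KPR8 (coloured points) with the mean of the 3 lines and its SE from limma (black), for the large subunit (left) and the small subunit with Mrps36 (right). Most black marks lie left of 0, from -0.55 for Mrpl42 to 0.27 for Mrpl39, and asterisks mark the 5 genes past the threshold.

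Across the whole group the differences were small and mostly below 0. The median was -0.20, or 1.15-fold lower, against 0.00 for all tested genes, and it was negative with each array centred on its median gene (-0.23) or on its cytosolic ribosomal protein genes (-0.10). Centring on the cytosolic genes raised the median of all tested genes to 0.10. Relative to all genes the members stood at -0.20 in each case, which centring cannot change because it moves all genes of an array alike. In the fit on the deposited values 805 of all tested genes were higher and 683 lower. The cytosolic centring changed this to 1050 higher and 373 lower, and left 0 members past the threshold. At an unadjusted p under 0.05 it gave 2 members lower and 2 higher.

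In all, 64 of the 74 members were below 0, against 3802 of the 7644 tested genes (49.7%). Below 0 in all 3 lines were 36 members, 48.6%, against 25.7% of all tested genes. Above 0 in all 3 lines were 0 members, against 26.0% of all tested genes. The fall was not particular to the members. Below 0 in all 3 lines were 42.9% of the cytosolic ribosomal proteins and 46.0% of the other mitochondrial lists pooled, described below. Above 0 in all 3 lines were 6 and 8 genes of those sets. Members are not independent replicates, and these counts are given as a description. The tamoxifen arrays lay wholly below the ethanol arrays for 9 members, 12.2%, against 8.20% of all tested genes, and wholly above them for 0 members, against 7.48%. Besides Mrpl42 and Mrpl18 the 9 were Mrps11, Mrps7, Mrpl4, Mrps6, Mrpl55, Mrps28 and Mrps18c, none of which passed in limma. The share wholly below was 21.4% of the cytosolic set and 12.6% of the pooled lists, with 2 genes of each wholly above.

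Few members differed by much: 72 of the 74 differed by less than log2 0.5, where 83.1% of all tested genes did. The SE of a member's difference was 0.10 to 0.18, so differences of the size of the median are within about 2 SE for each gene. Mrps11, the counterpart of bacterial S11, had the most negative difference among the members that did not pass. It read 5.58, 5.29 and 5.34 with tamoxifen, against 5.86, 6.10 and 5.62 with ethanol, and its difference of -0.46 ± 0.17 (SE, n = 3 lines) had a limma adjusted p of 0.0797. Mrpl40, Mrpl28, Mrpl37, Mrps7 and Mrpl12 followed at -0.42, -0.41, -0.41, -0.40 and -0.39, with limma adjusted p of 0.0624 to 0.101. Mrpl40 did pass with the stricter filter, which gave 6 members lower, and with the mean of probe sets.

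The positive end of the range held no gene past the threshold. Mrpl39, a mitochondria-specific large subunit protein, read 9.74, 10.56 and 9.67 with tamoxifen, against 9.22, 10.19 and 9.78 with ethanol. KPR4 and KPR5 were higher and KPR8 was slightly lower, with a mean of 0.27 ± 0.14 (SE, n = 3 lines, limma adjusted p = 0.213). Mrpl44, which has a fold related to ribonuclease III, read 10.28, 10.23 and 10.63 with tamoxifen, against 9.96, 9.85 and 10.66 with ethanol. It showed the same arrangement of lines, with a mean of 0.22 ± 0.13 (limma adjusted p = 0.248). Of its 2 dimmer probe sets, the brighter gave 0.29, again with KPR8 below 0, and the other -0.17. Mrps2, Mrps23 and Mrpl48 followed at 0.15, 0.10 and 0.10, each above 0 in KPR4 and KPR5 and below 0 in KPR8. Dimmer probe sets gave -0.15 for Mrps23, -0.25 for Mrpl48, 0.18 for Mrpl39 and 0.04 for Mrps2, each with KPR8 above 0.

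The subunits had similar medians, and the difference between them was not tested. The large subunit had 4 of 49 genes lower and a median of -0.18, and the small subunit 1 of 24 lower and a median of -0.20. By origin, as classed from background knowledge, 46 members with a bacterial counterpart had a median of -0.20 with 4 lower, and 27 specific to mitochondria had a median of -0.18 with 1 lower. Mrpl47, which is past the threshold, and Mrpl55 were moved to the class with a bacterial counterpart after values had been seen, and Mrpl47 bears on that split. Mrps36 was at -0.22 ± 0.16. Mrpl58, a peptidyl-tRNA hydrolase built into the large subunit, was at -0.32 ± 0.16.

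By signal, the 25 dimmest members had a median of -0.24, the middle 24 of -0.21 and the 25 brightest of -0.14. All tested genes within the same ranges of signal had medians of 0.00, -0.01 and 0.00. All 5 genes past the threshold were among the 25 brightest, where the SE was 0.10 to 0.16. They are 20% of these members, where 12% of all tested genes in that range of signal were lower. In the dimmest and middle ranges 0 members passed, where 9.49% and 11% of all tested genes were lower. Mean signals ran from 5.07 for Mrps5, 5.24 for Mrpl55 and 5.37 for Mrpl4 to 10.91 for Mrpl11, 11.16 for Mrpl52 and 11.57 for Mrpl51. Probe sets differ in how well they hybridise, so this order is not one of transcript abundance. The 3 brightest probe sets differed little between treatments, at 0.02 ± 0.11 for Mrpl11, -0.18 ± 0.11 for Mrpl52 and -0.05 ± 0.10 for Mrpl51, while Mrps5, Mrpl55 and Mrpl4 were at -0.36 ± 0.18, -0.22 ± 0.16 and -0.31 ± 0.17.

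Other probe sets of the same genes gave a mixed picture. Of the 74 members 33 had more than 1 probe set, and 42 of the 53 additional ones passed the filter. Their median difference was -0.13, 27 of the 42 were below 0, and 25 had the sign of the main probe set. For the 5 genes past the threshold they add nothing, since Mrpl42 and Mrpl17 each had 1 further probe set at background (mean 1.19 and 2.09) and Mrpl18, Mrpl47 and Mrps18b had 1 probe set each. With the mean of all probe sets per gene, Mrpl42 was at -0.30 (limma adjusted p = 0.152) and Mrpl17 at -0.27 (limma adjusted p = 0.172), and Mrps18b missed the threshold (limma adjusted p = 0.0501). The 4 members lower under that setting were Mrpl18, Mrpl40, Mrpl47 and Mrps5.

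Line by line, the median difference of the members was -0.12 in KPR4, -0.20 in KPR5 and -0.20 in KPR8, with 53, 59 and 61 of 74 genes below 0. The medians of all tested genes in those lines were 0.01, 0.03 and -0.04. An indirect sign of RNA integrity, which was itself not among the values used, differed as well. The gap between 3′ and 5′ probe sets of Gapdh changed with the drug by 0.24, 0.29 and -0.40 in the same lines. The gap of Actb changed by 0.16, 0.39 and -0.07. The part of these gaps in the members' differences was not tested. Across the 74 members, which share arrays and span a narrow range, the differences in KPR5 correlated with those in KPR4 at r = 0.45 and with those in KPR8 at 0.17, and KPR4 with KPR8 at 0.06. Over all tested genes these were 0.73, 0.62 and 0.66. Each line has a single array per treatment, which leaves no test of whether the lines responded differently.

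**Figure D3:**
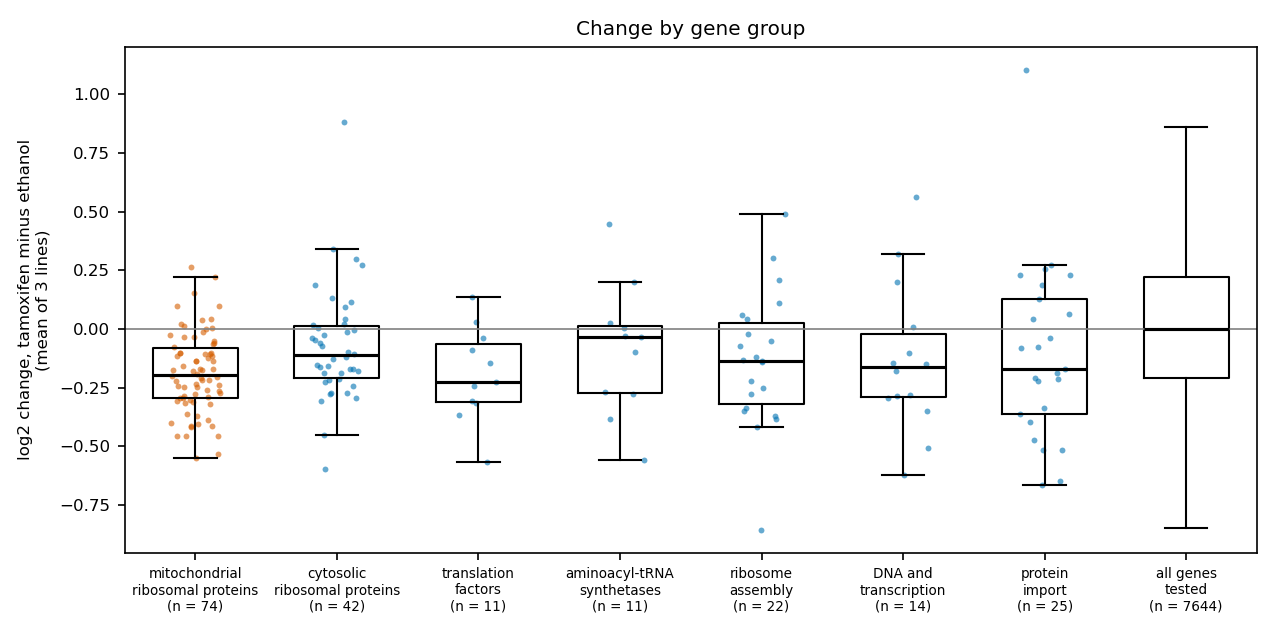
Log2 difference, tamoxifen minus ethanol, mean of 3 lines (y axis), for the members, the cytosolic ribosomal proteins, 5 other mitochondrial lists and all tested genes. Boxes give quartiles and median, whiskers reach the furthest value within 1.5 box lengths, and points are genes (not drawn for all genes). The members' box lies below 0 and is narrower than that of all tested genes.

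Besides the members, 87 genes were measured in 6 lists, called the pathway lists. They cover mitochondrial translation and ribosome assembly, and also mitochondrial DNA, its transcription and protein import, which are not translation. Of the 87 genes 11 were lower and 2 higher, 12.6% lower against the background of 8.94%, with a median of -0.15. The import list alone held 5 of the lower genes and 1 of the higher. Among ribosomal proteins named outside the Mrpl and Mrps series, 1 of 4 was lower, Ptcd3 of the small subunit (-0.41 ± 0.14, limma adjusted p = 0.0488), and the list's median was -0.36. Of 22 assembly factors 2 were lower. Noa1, a GTPase needed to build the small subunit, fell by 0.87, 1.04 and 0.66 in KPR4, KPR5 and KPR8, a mean of -0.85 ± 0.14 (limma adjusted p = 6.2e-04). C1qbp, a matrix protein also needed for ribosome assembly, was at -0.42 ± 0.11 (limma adjusted p = 0.0150), but at -0.19 with the mean of its probe sets.

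Of 11 translation factors 1 was lower, Gfm1, an elongation factor (-0.56 ± 0.18). Of 11 aminoacyl-tRNA synthetases 1 was lower, Kars, which serves both the cytosol and mitochondria (-0.56 ± 0.14). Among 14 genes of mitochondrial DNA and its transcription, Polg, the catalytic subunit of the DNA polymerase, was at -0.62 ± 0.17 and Mterf2, of the termination factor family, at 0.56 ± 0.18. Of 25 import genes 5 were lower and 1 higher. Timm9, a chaperone of the intermembrane space, was at -0.66 ± 0.18, the receptor gene Timm50 at -0.65 ± 0.18, Chchd4, an oxidoreductase, at -0.52 ± 0.16 and the channel gene Timm23 at -0.51 ± 0.13. Gfer, the sulfhydryl oxidase that works with Chchd4, read 9.05, 8.92 and 8.47 with tamoxifen, against 7.45, 7.83 and 7.84 with ethanol. It was higher in each line, by 1.10 ± 0.18 in the mean (limma adjusted p = 6.0e-04), and its groups did not overlap.

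Of 12 regulators of such genes 1 was lower and 1 higher. Pprc1, a coactivator of the PGC-1 family, read 6.79, 7.36 and 6.57 with tamoxifen, against 7.33, 8.44 and 7.77 with ethanol. Each line was lower with the drug, and the groups overlapped because tamoxifen-treated KPR5 lay just above ethanol-treated KPR4. It was the regulator furthest from 0, -0.94 ± 0.18 (limma adjusted p = 0.0016). Esrra, a nuclear receptor, was at 0.51 ± 0.15 (limma adjusted p = 0.0275). Its ethanol arrays read 3.54, 3.99 and 3.80, so it passed the filter only through the tamoxifen arrays, where it was higher. Its call is given as a description only. The factors behind the motifs did not pass: Nrf1 was at -0.41 ± 0.16, Gabpa at 0.18 ± 0.17, Yy1 at -0.08 ± 0.10 and Myc at -0.32 ± 0.16, with limma adjusted p of 0.0910, 0.507, 0.661 and 0.176. Noa1, Gfer and Pprc1 kept their calls with any 1 line left out, while each of the other genes named here as past the threshold, from Ptcd3 to Esrra, lost its call in at least 1 of those fits. The pathway lists had 7 genes lower and 2 higher without KPR5, and 2 lower and 1 higher without KPR8.

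The cytosolic ribosome is built from a separate set of nuclear genes. Taken by symbol, the set had 42 tested genes. It includes Rps15a-ps6, a pseudogene by its symbol, and the paralogues Rpl7l1, Rpl22l1, Rpl39l and Rps27l. Of these paralogues Rps27l and Rpl22l1 were past the threshold as higher and Rpl7l1 as lower. Among the 42 tested genes 2 were lower and 3 higher, with a median of -0.11 and quartiles of -0.21 and 0.01. By line the median was -0.02 in KPR4, -0.03 in KPR5 and -0.26 in KPR8. The members' medians in those lines were -0.12, -0.20 and -0.20, so in KPR8 the cytosolic set was the lower of the 2. The quartiles of the mitochondrial set were -0.30 and -0.08. Rps27l, a paralogue of Rps27 and a known p53 target, was the furthest from 0 at 0.88 ± 0.10 (limma adjusted p = 2.3e-05). No test compared the 2 sets.

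Levels of the mitochondrial ribosomal protein genes also differed between the lines. In limma's F-test of the line terms 27 of the 74 passed, against 42.0% of all tested genes, so their share of 36.5% does not stand above the background. Leaving out 1 line gave 12 to 15. The test takes the tamoxifen and ethanol arrays of a line as its replicates, since there is 1 array per line and treatment. A difference in the culture or preparation of a line therefore cannot be told apart from a difference between lines. KPR8 had the lowest level in 18 of the 27 and KPR5 the highest in 16. Over the 3210 tested genes that passed, KPR8 was lowest in 1110 and KPR5 highest in 1052. Mrpl24, the counterpart of bacterial L24, read 10.24 with tamoxifen and 10.36 with ethanol in KPR4, 9.67 and 9.64 in KPR5, and 9.25 and 9.12 in KPR8. It had the widest range, 1.11 (F-test, limma adjusted p = 2.5e-04), and no 2 lines overlapped.

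Mrpl35 read 9.44 with tamoxifen and 9.48 with ethanol in KPR4, 9.50 and 9.74 in KPR5, and 8.35 and 8.80 in KPR8. KPR8 was apart from the other lines, while KPR4 and KPR5 differed little. Mrpl52 showed the same pattern at a brighter signal, with line means of 11.36, 11.56 and 10.56 in KPR4, KPR5 and KPR8 (F-test, limma adjusted p = 6.7e-05). Mrpl39 was highest in KPR5, with line means of 9.48, 10.37 and 9.72, and Mrps21 highest in KPR4, with line means of 9.86, 9.42 and 9.02. These 5 genes were picked for their range between lines, which was 0.85 to 1.11. The median range was 0.48 for all members and 0.50 for all tested genes. No member's treatment difference, as a mean of the 3 lines, was further from 0 than -0.55, but that is an unlike measure. Within 1 line a treatment difference could reach the size of the picked ranges, as for Mrpl42 in KPR5 (-0.86).

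**Figure D4:**
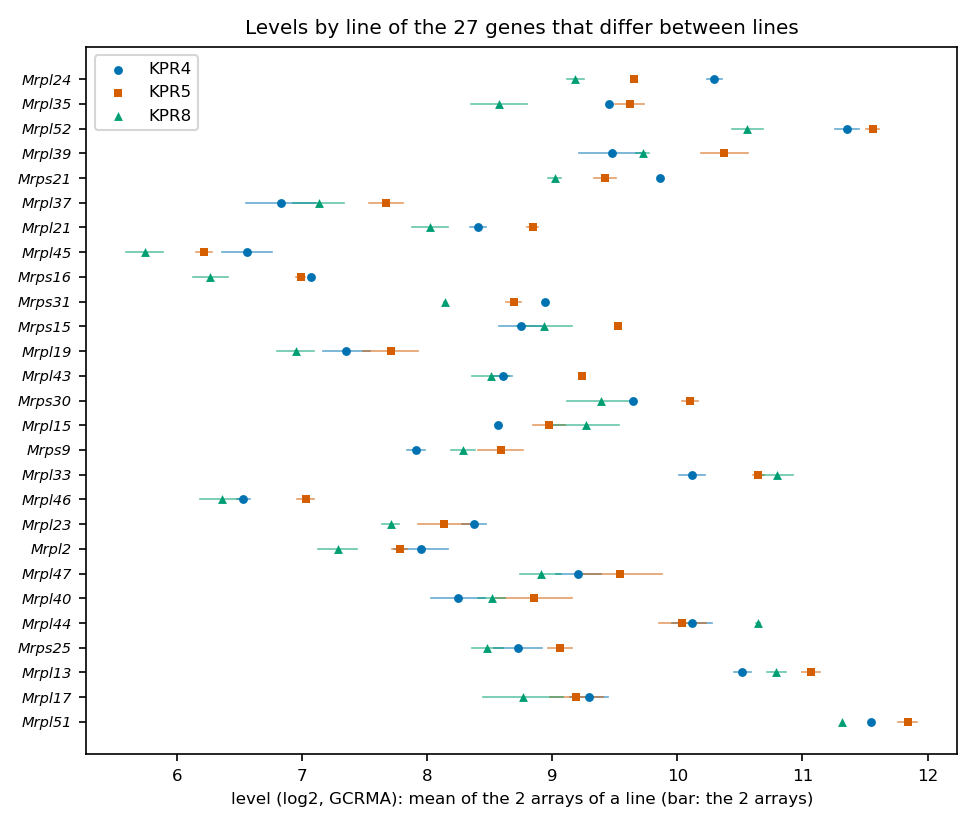
Level (log2, x axis) in each line of the 27 members that differed between lines in limma's F-test, sorted by the range between lines. Points are the mean of the tamoxifen and ethanol arrays of a line and bars join those arrays, with Mrpl24, Mrpl35 and Mrpl52 spread the widest and KPR8 most often at the left.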

How the data were processed

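The 6 arrays, 1 per line and treatment, were each made from 100 ng of total RNA, amplified and labelled with biotin. Log2 values for each probe set were used as deposited. According to the submitters' processing notes, the tools were R 2.11.0 and GCRMA 2.20.0. GCRMA equalises the arrays, so a change shared by most genes would not be seen. Platform annotation named 20380 of 22690 probe sets with 1 gene symbol, 691 carried several and 1555 had none, and 64 are controls.

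Genes were represented by their brightest probe set and kept where 3 arrays or more reached log2 4. The test was limma's (3.58.1, run under R 4.3.3), with terms for line and treatment, a variance trend, 2-sided p-values and Benjamini-Hochberg adjustment over 7644 genes. Each gene has 2 residual degrees of freedom, and moderation adds 12.9. SEs use that moderated spread, which is drawn largely from other genes. The 3 lines are the replicates. The p-values therefore rest on how much treatment differences vary between lines, moderated in this way, and not on how levels differ between lines. The line term follows the design: deviations from the group means correlated at 0.876, 0.737 and 0.761 between the arrays of KPR4, KPR5 and KPR8. The fit was also run on simulated data drawn from limma's own fitted model, which checks the code and says nothing about the calls reported here. Cytosolic ribosomal proteins were taken by symbol, without S6 kinases. Named genes are the members past the threshold, the 5 largest differences in each direction, the 3 brightest and 3 dimmest, the 5 widest ranges between lines, and up to 5 called genes per other list. Members named besides these were chosen after their values were seen. Alternatives were variance moderation, the line term, filters, probe set averaging, 2 centrings and leaving out each line. Members and lists were chosen with earlier results of these data known. No scanner files entered the work, and the number of arrays limits the precision.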

Additional observations from a re-analysis of the deposited data

Results flagged for a closer look

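Among the 20 members named by rule, 9 had lines that moved in opposite directions with treatment. Such a split is common: all 3 lines were below 0 for 36 of the 74 members and above 0 for 0. Over all tested genes these shares were 25.7% and 26.0%, so the count of 9 is not a result about the members. With 1 array per line and treatment these differences were not tested, and most of the values lie near 0. Mrpl39 (KPR4 0.53, KPR8 -0.11), Mrpl44 (KPR5 0.37, KPR8 -0.03), Mrps23 (KPR4 0.38, KPR8 -0.13), Mrpl48 (KPR5 0.31, KPR8 -0.12), Mrps2 (KPR5 0.28, KPR8 -0.02) and Mrpl11 (KPR4 0.13, KPR8 -0.12) were above 0 in KPR4 and KPR5 and below 0 in KPR8. Their highest and lowest lines were 0.63, 0.41, 0.51, 0.44, 0.30 and 0.25 apart on the log2 scale. In all, 9 of the 74 members had this arrangement, and its share over all tested genes was not counted. It rests on the main probe sets. Further probe sets past the filter put KPR8 above 0 for Mrpl39 (0.23), Mrps23 (0.22), Mrpl48 (0.11) and Mrps2 (0.31). For Mrpl11 they gave 0.18 and -0.21 in KPR8. Those of Mrpl44 kept KPR8 below 0, the dimmest with KPR4 and KPR5 below 0 as well.

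Mrps5 differed by 0.11 in KPR4 and by -0.76 in KPR8, 0.86 apart, at a signal close to the filter. KPR5 lay between them (-0.43). The dimmer probe set of Mrps5, also past the filter, reversed this order of lines. There the fall was largest for KPR4 (-0.67), followed by KPR5 (-0.60), while KPR8 hardly moved (-0.04). For Mrpl24 the lines ran from -0.12 in KPR4 to 0.13 in KPR8, 0.25 apart. For Mrpl51 they were 0.15 apart, with KPR8 at 0.00 and KPR5 at -0.15.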

How the results depend on the processing

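The number of members higher with tamoxifen was 0 under each of the 10 alternatives, with 0 to 2 at an unadjusted p under 0.05 in limma. The number lower, 5 in the fit as reported, was 2 without the variance trend, 2 without a filter and 0 with each array centred on its cytosolic ribosomal protein genes, and 0 to 2 with 1 line left out. Centring leaves the order of genes and moves all of them, and dropping a line leaves fewer samples. The replicate block is the line term, whose pairing comes from the stated design: with no replicate block 0 members were lower, 2 at an unadjusted p under 0.05, and the pathway lists had 0 lower and 0 higher. That fit gives no value for differences between lines. The members' median of -0.20 was -0.14 with the mean of probe sets, -0.10 with the cytosolic centring and -0.21 to -0.15 with 1 line left out.

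The number of members that differed between lines, 27, fell to 12 to 15 with 1 line left out. For the pathway lists, 11 lower became 3 with the cytosolic centring and 2 to 10 with 1 line left out. The 2 higher became 1 without a filter, 1 with the median centring, 6 with the cytosolic centring and 1 to 2 with 1 line left out. Of 425 values of named genes under an alternative, 13 changed sign, none of them past the threshold except Rps9 in the fit as reported. With the mean of probe sets these were Mrpl48 (-0.078), Mrps23 (-0.027), Mrpl11 (-0.107), Mrpl52 (0.012), Mrpl51 (0.054) and Rps9 (-0.014). With the median centring they were Mrpl11 (-0.0068) and Mrpl24 (-0.016), and with the cytosolic centring Mrpl51 (0.049). With 1 line left out Mrpl48 ranged from -0.012 to 0.206, Mrps23 from -0.046 to 0.211, Mrpl11 from -0.033 to 0.092 and Mrpl24 from -0.047 to 0.079. With the mean of probe sets 4 members were lower, of which Mrpl18 and Mrpl47 are among the 5 as reported, Mrps5 (-0.40, limma adjusted p = 0.0465) and Mrpl40 were gained, and Mrpl42, Mrpl17 and Mrps18b were lost. For Mrpl42 and Mrpl17 that mean takes in a further probe set at background (mean 1.19 and 2.09), which by construction shrinks the difference. The stricter filter gave the 5 and Mrpl40. Where no construction is named, the cause was not tested.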

Other observations

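Several members start head to head with another gene, and this comparison was chosen after the data were seen. In RefSeq 24 of the 65 members with a promoter window had the start of a gene on the other strand within 1000 bases upstream, and for 13 of them that neighbour was tested. The 13 include Mrpl46 and Mrps11, each the other's neighbour. Of the 13 neighbours 3 were lower and 3 higher in the limma fit, where 8.94% of all tested genes were lower and 10.5% higher. Ncapd2, a condensin subunit that faces Mrpl51, was at -1.35 ± 0.17 (limma adjusted p = 6.0e-05), while Mrpl51 was at -0.05 ± 0.10. Eme1, a nuclease subunit that faces Mrpl27, was at -0.87 ± 0.16 (limma adjusted p = 0.0017), while Mrpl27 was at -0.17 ± 0.16.

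Pnpla7, a lysophospholipase gene facing Mrpl41, was at 0.96 ± 0.20 (limma adjusted p = 0.0032), while Mrpl41 was at -0.14 ± 0.11. Tmem63b, facing Mrpl14, and Klc4, a kinesin light chain gene facing Mrpl2, were higher by 0.63 ± 0.16 and 0.58 ± 0.17, while Mrpl14 and Mrpl2 were at -0.24 ± 0.17 and -0.29 ± 0.16. Tcp1, a subunit of the cytosolic chaperonin facing Mrpl18, was the neighbour that fell along with a member past the threshold, at -0.37 ± 0.10 (limma adjusted p = 0.0190). Mrpl46 and Mrps11 face each other 42 bases apart and were at -0.04 ± 0.17 and -0.46 ± 0.17. The differences within these pairs were not tested.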
